A study of Homo sapiens with 24 samples.

Results

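The comparison asked where YC-1, given for 16 h, changed a transcript by a different amount in SNU1079 than in RBE cells. It was made over the 13043 genes expressed in both lines, of 17860 tested and 57820 rows in the whole table. A gene counted as expressed in both when its mean over the 6 libraries of each line at 16 h was at least 20 normalised counts. The measure is an interaction, the log2 fold change of YC-1 over DMSO in SNU1079 minus the same fold change in RBE, so a positive value means that SNU1079 responded more upwards or less downwards. Values were log2(normalised count + 1), and a difference was called at an adjusted p under 0.05. Below, rose, fell, higher and lower are used of called differences, and the other genes are given by their values.

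RBE and SNU1079 are established lines from human cholangiocarcinoma, a cancer of the bile duct lining. Both carry an IDH1 mutation and are labelled as expressing SULT1A1 at a high level. At 16 h there were 4 groups of 3 libraries: RBE with DMSO, the vehicle, RBE with YC-1, SNU1079 with DMSO and SNU1079 with YC-1. A further 12 libraries of the same design at 6 h entered the estimate of the spread. Times are those of the titles and design text. A separate time label gives 16 h for every DMSO library and 6 h for every YC-1 library, and this conflict is unresolved. The design text calls the 3 libraries of a group biological replicates without saying what separated them, and the sources used here give no dose. Each line is a single model of its kind, so a difference between them is a difference between these lines and cannot be told apart from one between the cultures they were grown in.

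YC-1 is a small benzyl-indazole that stimulates soluble guanylate cyclase and lowers HIF-1 activity. SULT1A1 is a cytosolic sulfotransferase, and some benzylic alcohols become reactive, DNA- and protein-modifying electrophiles once an enzyme of this family has sulfonated them. A transcriptome that meets such an agent usually shows stress kinases, inflammatory signals, p53 and the cell cycle at once, and each of these has its own feedback loops: dual-specificity phosphatases and Sprouty proteins restrain RAS and MAP kinase signalling, and TNFAIP3 and NFKBIA restrain NF-kB. These feedback genes are transcribed in response to the pathway they restrain and are often read as markers of its output.

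Libraries of SNU1079 were less alike than those of RBE. Summed normalised counts, which do not measure sequencing depth, were 19010000 to 21580000 with DMSO and 22880000 to 27010000 with YC-1. The median SD of a gene's log2 values was 0.115 and 0.133 in the RBE groups and 0.231 and 0.303 in the SNU1079 groups, DMSO and YC-1 in that order. The fit took a common spread per gene over all groups, so SEs and adjusted p-values below do not reflect either line's own spread. SNU1079 DMSO replicate 1 and SNU1079 YC-1 replicates 2 and 3 stood apart. The SD of their log2 difference from their group mates was 0.88, 0.85 and 0.851, against 0.446 to 0.595 in RBE. Mitochondrially encoded RNA made up 3.38% of SNU1079 YC-1 replicate 2 and 18.1% and 22.1% of its mates. Among the 6 h libraries, SNU1079 YC-1 replicate 1 also stood apart (SD 0.843) and had the lowest library weight (0.128). It was left out in no alternative. Bile duct markers were present, with 9 of 11 at a mean of at least 10 in each group and summed levels of 41020 to 143000. Of 12 hepatocyte markers, 3 to 5 reached that level and the sums were 1200 to 2250. Stromal and endothelial markers summed to 551 to 3492 and leukocyte markers to 1229 to 4284, the latter almost entirely CD68.

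Most of the response was shared, and a minority of genes differed between the lines. YC-1 changed 8144 of the 13043 genes in RBE (62.4%), with 4091 up (31.4%) and 4053 down (31.1%), and 8095 in SNU1079 (62.1%), with 4145 up (31.8%) and 3950 down (30.3%). Both lines moved the same way, with no interaction call, at 5229 genes. The interaction was called at 2139 genes (16.4%; over all genes tested it was called at 14.6%), 1153 of them higher in SNU1079 (8.84%) and 986 lower (7.56%). Its median size among called genes was 0.91 on the log2 scale, with a median SE of 0.27 over all 13043 genes. It exceeded 2-fold at 886 genes and 4-fold at 102. At an unadjusted p under 0.05 there were 4088 genes.

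The called genes fell into 3 kinds. In 1149 the YC-1 effect was called in 1 line only. A missed threshold in the other line does not show that its level stayed the same. Where the call was made for RBE only, it was a decrease at 308 genes and an increase at 270. Where it was made for SNU1079 only, it was an increase at 282 genes and a decrease at 289. In 792 both lines moved the same way by unequal amounts: 285 fell more in RBE, 163 fell more in SNU1079, 173 rose more in RBE and 171 rose more in SNU1079. In 185 the lines moved in opposite directions, each line's effect and the interaction all being called. The remaining 13 were called in neither line alone.

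**Figure D1:**
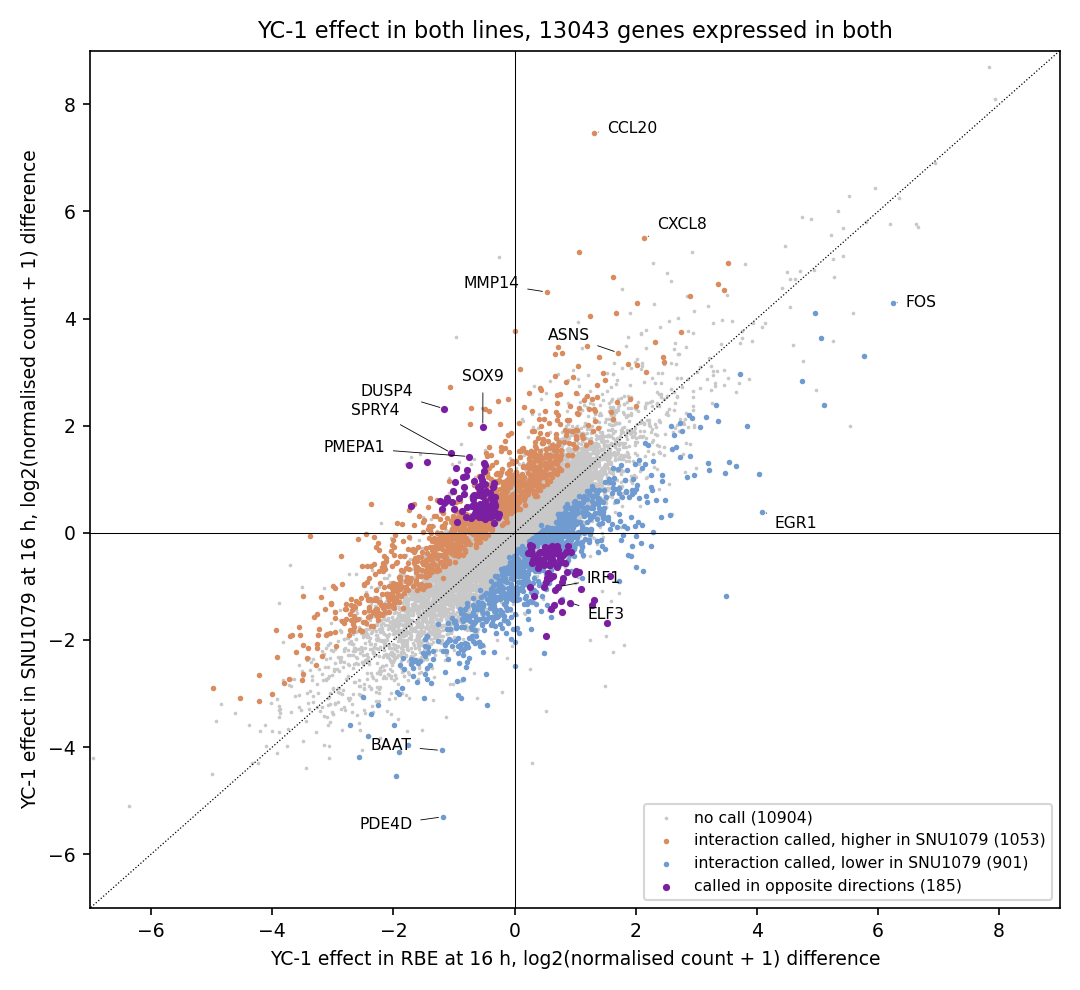
Each point is 1 of the 13043 genes expressed in both lines, with the log2 fold change of YC-1 over DMSO at 16 h in RBE on the horizontal axis and in SNU1079 on the vertical axis. Most points follow the diagonal, the called interactions lie off it, and the 185 genes called in opposite directions occupy the upper left (100) and lower right (85) corners.

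Directions depend on the scaling, and most of all for the genes with opposite signs. Scaling the libraries to ribosomal protein genes, which were themselves higher under YC-1, moved the median interaction by 0.35, the median RBE effect by -0.90 and the median SNU1079 effect by -0.55. The interaction split then changed from 1153 higher and 986 lower to 2589 and 292. Scaling to equal sums moved the same medians by -0.04, -0.33 and -0.36, with splits of 986 and 1088 for the interaction, 2363 up and 5569 down for RBE, and 2307 up and 5689 down for SNU1079. Changes are therefore stated relative to the median gene, as the deposited normalisation has it, and counts under ribosomal protein scaling are given beside the lists where they differ by more than 1.5 times.

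Opposite directions were called at 185 of the 13043 genes (1.42%). Of these, 100 rose in SNU1079 and fell in RBE (0.767%) and 85 fell in SNU1079 and rose in RBE (0.652%). The effects were modest: the smaller of a gene's 2 absolute effects had a median of 0.45 in the first set and 0.48 in the second, and both effects exceeded 2-fold at 4 genes in each. No YC-1 library overlapped a DMSO library in either line at 75 and 65 genes. The genes were chosen by calls in these same libraries, so this separation, and that of single genes below, is no separate support. Its share over all genes was not computed. All 185 kept opposite signs without any single library, with 137 to 164 still called so. These fits share most of the libraries by which the genes were chosen. Under equal sums 157 kept opposite signs and 50 the calls, and under scaling to ribosomal protein genes 58 and 13. The 10 genes per orientation described next were those with the largest smaller effect. Of these 20 genes, 15 had opposite signs in all 24 alternatives, and CASP10, IRF1, PMS1, RGS2 and TNFSF9 lost them when scaled to ribosomal protein genes. The calls in RBE, in SNU1079 and of the interaction were all kept in every alternative by 3 genes, DUSP4, MFNG and SPRY4. Of the 20, 15 lost a call when scaled to ribosomal protein genes, 6 under equal sums (CASP10, PAX2, PLA2G6, PMS1, WDR81 and ZDHHC11) and 8 with both times pooled. The SNU1079 vehicle also differed between the times at some of these genes: DMSO at 16 h stood from DMSO at 6 h by -2.28 at IRAK2, -1.55 at RNF207, -0.96 at SPRY4, -0.80 at WDR81, -0.62 at DUSP4, 1.04 at HLF and 1.12 at ELF3, all called. These differences share the 16 h DMSO libraries with the interaction, and their part in it was not tested.

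Among the genes that rose in SNU1079 and fell in RBE, DUSP4 had the largest interaction, followed by RNF207, MFNG and SPRY4. DUSP4 encodes a nuclear phosphatase that inactivates ERK and other MAP kinases (chr8:29333064-29350668, GRCh38). DUSP4 read 1752, 1850 and 1798 in the RBE DMSO libraries, 799.8, 828 and 779 in RBE YC-1, 172, 141 and 145 in SNU1079 DMSO and 796, 744 and 747 in SNU1079 YC-1. The 3 libraries of each group were close together and no groups overlapped within a line. RBE fell from a high level and SNU1079 rose from a low one until the lines met: with DMSO, SNU1079 stood -3.56 from RBE on the log2 scale (adjusted p = 2.7e-17), and with YC-1 -0.07 (adjusted p = 0.528). The effects were -1.16 ± 0.10 in RBE and 2.32 ± 0.10 in SNU1079 (log2 fold change ± SE), and the interaction was 3.48 ± 0.14 (adjusted p = 8.67e-13). SPRY4, a Sprouty protein that dampens receptor tyrosine kinase signals (chr5:142310427-142326455), had the same shape. Levels of SPRY4 were 945, 942 and 950 in RBE DMSO, 487, 478 and 415 in RBE YC-1, 121, 156 and 139.8 in SNU1079 DMSO and 362, 376 and 436 in SNU1079 YC-1. Its groups were separate in both lines, the effects were -1.04 in RBE and 1.49 in SNU1079, and the interaction was 2.53 ± 0.17 (adjusted p = 8.56e-09). The gap between the lines went from -2.77 with DMSO to -0.23 with YC-1 (adjusted p = 0.107). Both interactions were called in each of the 24 alternatives.

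MFNG, PAX2 and IRAK2 were in the same group. MFNG encodes a fucose-specific glycosyltransferase that modifies Notch receptors (chr22:37469063-37486401). In RBE, MFNG was at 131, 114 and 65 under DMSO and 46.7, 27 and 36.5 under YC-1, and in SNU1079 at 71, 74 and 58.3 and 196, 204 and 126. RBE libraries fell and SNU1079 libraries rose without overlap, with an interaction of 2.77 ± 0.41 (adjusted p = 0.000135), also called in all 24 alternatives. PAX2, a paired-box developmental transcription factor (chr10:100735603-100829941), was at low levels. For PAX2 the values were 93.6, 132 and 131 (RBE DMSO), 42.8, 64 and 74.8 (RBE YC-1), 39.6, 28.1 and 42.1 (SNU1079 DMSO) and 58.2, 78 and 78.4 (SNU1079 YC-1). The groups did not overlap in either line, and the effects of -0.98 in RBE and 0.96 in SNU1079 were nearly equal in size. IRAK2, a kinase-like adaptor of interleukin-1 and Toll-like receptor signalling (chr3:10164865-10243743), fell in RBE and rose in SNU1079. IRAK2 read 274, 256 and 238 in the RBE DMSO libraries, 141, 158 and 140.5 in RBE YC-1, 80.4, 110.3 and 121 in SNU1079 DMSO and 235, 263 and 160.3 in SNU1079 YC-1. No YC-1 library overlapped the DMSO libraries of its line. At 6 h the interaction of IRAK2 was 0.17 (adjusted p = 0.901), and in SNU1079 the DMSO libraries themselves were lower at 16 h than at 6 h by -2.28 (adjusted p = 3.97e-08), a comparison that shares those DMSO libraries.

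The other 5 genes of this orientation were RNF207, PLA2G6, ZDHHC11, WDR81 and NPIPB12. RNF207 encodes a RING finger protein (chr1:6205475-6221299). Levels of RNF207 were 209.8, 168 and 206 in RBE DMSO, 72.5, 47.7 and 53.4 in RBE YC-1, 144, 94.8 and 62 in SNU1079 DMSO and 152, 318 and 247 in SNU1079 YC-1. RBE fell without overlap, and the SNU1079 YC-1 libraries spread widely, the lowest of them just above the highest DMSO library. Its interaction was 3.01 ± 0.38 (adjusted p = 2.36e-05), against -1.11 at 6 h (adjusted p = 0.186), when YC-1 lowered it in SNU1079 (-0.82, adjusted p = 0.0256). SNU1079 DMSO libraries held 282 ± 50.8 at the earlier time and 100.2 ± 41.2 at the later one (-1.55, adjusted p = 0.000746), and with both times pooled the interaction was 0.95 (adjusted p = 0.346). ZDHHC11, a member of the palmitoyltransferase family (chr5:795606-850986), moved by -0.83 in RBE and 0.86 in SNU1079. In RBE, ZDHHC11 was at 222, 190.3 and 179 under DMSO and 122, 122 and 90.2 under YC-1, and in SNU1079 at 73.4, 95.7 and 69.8 and 138, 138 and 157. All 4 groups were tight, and the lines crossed over. WDR81, a WD-repeat protein of endosomal trafficking (chr17:1716523-1738599), was higher in SNU1079 throughout. For WDR81 the values were 436, 449 and 401 (RBE DMSO), 162, 236 and 247 (RBE YC-1), 1373, 979 and 734 (SNU1079 DMSO) and 1672, 2124 and 1412 (SNU1079 YC-1). RBE fell, SNU1079 rose without overlap, and the SNU1079 call had an adjusted p of 0.065 without SNU1079 DMSO replicate 3.

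PLA2G6 encodes a calcium-independent phospholipase A2 (chr22:38111495-38205690). PLA2G6 read 55.5, 48.6 and 49.4 in the RBE DMSO libraries, 36.8, 18.5 and 31.3 in RBE YC-1, 90.7, 64.8 and 53.5 in SNU1079 DMSO and 125, 219.9 and 104 in SNU1079 YC-1. Its groups were separate in both lines, with effects of -0.86 in RBE and 1.05 in SNU1079, but the RBE call had an adjusted p of 0.148 without RBE YC-1 replicate 2 and 0.069 without RBE DMSO replicate 1, and the SNU1079 call 0.0553 without SNU1079 YC-1 replicate 2. NPIPB12 belongs to the nuclear pore complex interacting protein family on chromosome 16 (chr16:29483642-29505999), whose near-identical copies make its counts uncertain. Levels of NPIPB12 were 197, 132 and 160.3 in RBE DMSO, 79.1, 87.1 and 117 in RBE YC-1, 68.7, 33.1 and 71.3 in SNU1079 DMSO and 124, 107 and 145 in SNU1079 YC-1. Values fell in RBE and rose in SNU1079 without overlap, and the RBE call was lost without RBE DMSO replicate 1 (adjusted p = 0.0928), RBE YC-1 replicate 1 (0.0806) or RBE YC-1 replicate 2 (0.0575).

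The genes that fell in SNU1079 and rose in RBE included 2 transcription factors, ELF3 and IRF1, while DLGAP1-AS2 and CASP10 had the largest interactions. ELF3 encodes an epithelium-specific ETS factor (chr1:202007945-202017188). In RBE, ELF3 was at 1629, 1365 and 1528 under DMSO and 2810, 3022 and 2726 under YC-1, and in SNU1079 at 2605, 2458 and 2339 and 1101, 998 and 905. Each YC-1 library of RBE exceeded each DMSO library, and each YC-1 library of SNU1079 lay below. The effects were 0.92 ± 0.12 and -1.30 ± 0.12, and the interaction was -2.23 ± 0.17 (adjusted p = 6.91e-08). SNU1079 went from 0.71 above RBE with DMSO to -1.51 relative to it with YC-1. IRF1, a factor induced by interferon gamma that drives antigen presentation genes (chr5:132481609-132490798), started far apart and converged. For IRF1 the values were 342, 398 and 392 (RBE DMSO), 582, 691 and 586 (RBE YC-1), 1558, 1327 and 1418 (SNU1079 DMSO) and 727, 762 and 649 (SNU1079 YC-1). RBE rose and SNU1079 fell without overlap, and the gap closed from 1.92 to 0.20 (adjusted p = 0.143). Its interaction was -1.72 ± 0.17 (adjusted p = 7.95e-07) and was already called at 6 h (-1.26, adjusted p = 0.000197).

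The promoters of these 2 opposite genes are printed because each is a known NF-kB-linked factor and their direction was contrary to that of the NF-kB targets described further on. The stretches are the 250 bases before the RefSeq start on GRCh38.p14, 5′ to 3′ on the gene's strand, with matches in capitals to any of 6 motifs searched on both strands: kappa B and CArG by name, AP-1 (TGANTCA), CRE (TGACGTCA), CHR (TTTGAA) and CCAAT. Of 27305 promoters of this length in the table, 9.57% held a kappa B match, 6.6% AP-1, 1.77% CRE, 13.6% CHR, 33% CCAAT and 1.14% CArG. A match is a stretch of letters and not a measured binding site. The kappa B search took a fixed pattern of 10 bases, so a stretch without a match can still hold a variant site. The stretches of the opposite genes SPRY4 and IRAK2 were also searched, held no match and are not printed.
ELF3: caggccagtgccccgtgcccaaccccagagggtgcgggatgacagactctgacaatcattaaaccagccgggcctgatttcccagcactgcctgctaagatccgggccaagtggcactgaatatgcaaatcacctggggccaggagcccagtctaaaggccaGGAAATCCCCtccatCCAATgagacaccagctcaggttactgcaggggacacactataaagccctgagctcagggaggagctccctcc
IRF1: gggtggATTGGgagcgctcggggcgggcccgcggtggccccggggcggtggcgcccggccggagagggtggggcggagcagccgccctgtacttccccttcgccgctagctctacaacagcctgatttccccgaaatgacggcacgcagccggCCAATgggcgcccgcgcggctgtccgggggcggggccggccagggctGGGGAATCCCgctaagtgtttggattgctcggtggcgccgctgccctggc
The ELF3 stretch (chr1:202010337-202010586, plus strand) held 1 kappa B match starting 88 bases before the start and 1 CCAAT at 73 bases. The IRF1 stretch (chr5:132490774-132491023, minus strand) held 1 kappa B match at 50 bases and CCAAT at 244 and 97 bases.

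The other 8 genes of this orientation included signalling regulators and cell-death genes. SUSD6, a sushi-domain membrane protein and p53 target (chr14:69611596-69715142), had an interaction of -2.16 ± 0.19 (adjusted p = 2.26e-07). SUSD6 read 254, 229 and 235 in the RBE DMSO libraries, 505, 556 and 488 in RBE YC-1, 904, 605 and 691 in SNU1079 DMSO and 408, 327 and 314 in SNU1079 YC-1. Its effects were 1.10 in RBE and -1.05 in SNU1079, with no overlap. RGS2, which shortens signalling by G protein-coupled receptors (chr1:192809039-192812283), moved by 0.79 in RBE and -0.92 in SNU1079. Levels of RGS2 were 729, 654 and 680.3 in RBE DMSO, 1209, 1272 and 1092 in RBE YC-1, 916, 1274 and 1312 in SNU1079 DMSO and 623, 570.3 and 639 in SNU1079 YC-1. The groups were separate in both lines. TNFSF9, the ligand of the co-stimulatory receptor 4-1BB (chr19:6530999-6535928), moved by 0.87 in RBE and -0.74 in SNU1079. In RBE, TNFSF9 was at 123, 142 and 132 under DMSO and 218, 263 and 249 under YC-1, and in SNU1079 at 177, 185 and 163 and 112, 115 and 87.4. Again no libraries overlapped within a line. CASP10, an initiator caspase of death receptor signalling (chr2:201182881-201229406), had the larger change in SNU1079. For CASP10 the values were 156, 158 and 119 (RBE DMSO), 239, 357 and 178 (RBE YC-1), 137, 100.2 and 99.5 (SNU1079 DMSO) and 44.8, 46.4 and 29.3 (SNU1079 YC-1). The 3 SNU1079 YC-1 libraries were the lowest of the 12, and the RBE call had an adjusted p of 0.0765 without RBE YC-1 replicate 2, which held the highest value.

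PMS1 encodes a MutL-type mismatch repair protein (chr2:189784085-189877629). PMS1 read 558, 496 and 574 in the RBE DMSO libraries, 961, 998 and 891 in RBE YC-1, 369, 706 and 574 in SNU1079 DMSO and 298, 285 and 301 in SNU1079 YC-1. All RBE YC-1 libraries lay above all RBE DMSO libraries, and the SNU1079 YC-1 libraries were close together below a spread set of DMSO libraries. TMSB15B, a beta-thymosin that binds actin monomers (chrX:103918896-103966712), rose in RBE without overlap. Levels of TMSB15B were 146, 130.2 and 104 in RBE DMSO, 223, 295 and 243 in RBE YC-1, 159, 220.2 and 239 in SNU1079 DMSO and 160.2, 79.4 and 134 in SNU1079 YC-1. In SNU1079 the highest YC-1 library was above the lowest DMSO library, and the SNU1079 call had an adjusted p of 0.0522 without SNU1079 DMSO replicate 3 and 0.0916 without SNU1079 YC-1 replicate 2. HLF, a PAR bZIP factor expressed in liver (chr17:55265012-55325065), was far lower in RBE than in SNU1079. In RBE, HLF was at 17.3, 31.1 and 30.2 under DMSO and 51.7, 65.7 and 46.1 under YC-1, and in SNU1079 at 1142, 807 and 926 and 476, 885 and 435. SNU1079 YC-1 replicate 2 lay among the DMSO libraries, and the SNU1079 call was lost without SNU1079 DMSO replicate 1 (adjusted p = 0.064), SNU1079 YC-1 replicate 1 (0.0641) or replicate 3 (0.0796). DLGAP1-AS2, an antisense transcript (chr18:3603000-3608336) whose reads cannot be told apart from a partner's without the strand setting, was low. For DLGAP1-AS2 the values were 39.6, 41.7 and 38.1 (RBE DMSO), 119, 118 and 114 (RBE YC-1), 39.3, 39.3 and 44.3 (SNU1079 DMSO) and 13.2, 5.61 and 22.4 (SNU1079 YC-1). It rose in RBE and fell in SNU1079 without overlap, and its interaction of -3.22 ± 0.52 (adjusted p = 0.000291) was called in all 24 alternatives, while its opposite call was lost when scaled to ribosomal protein genes.

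**Figure D2:**
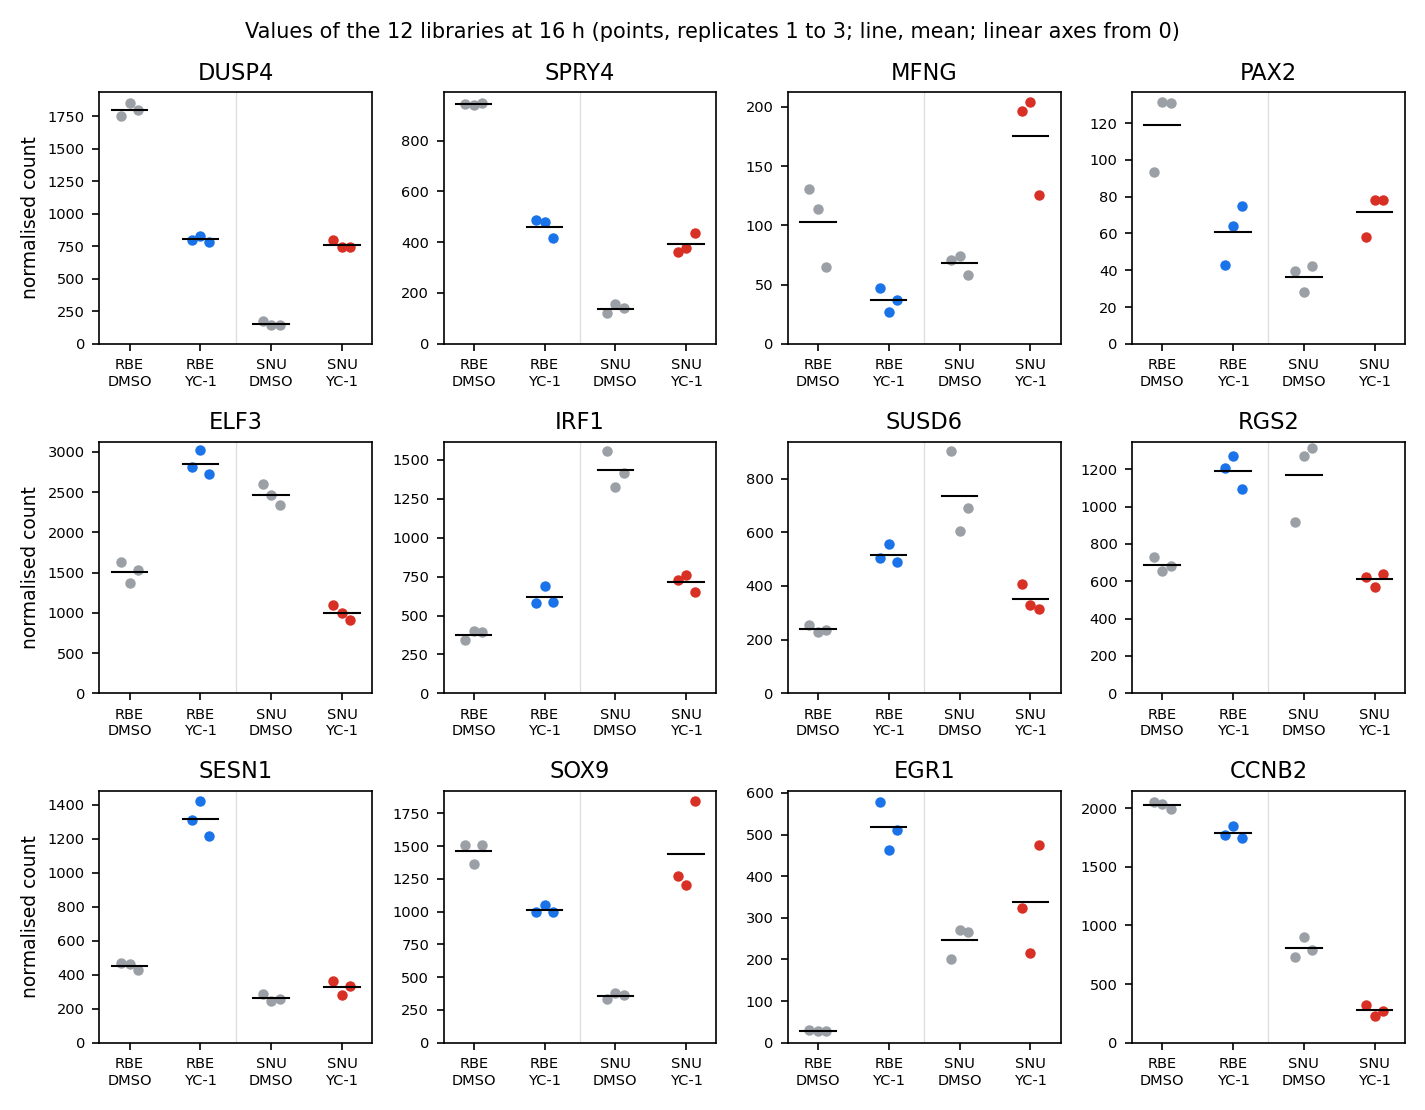
Normalised counts (linear axes from 0) of 12 genes in each of the 12 libraries at 16 h, one panel per gene, with points for libraries and bars for the means of the 4 groups. DUSP4, SPRY4, MFNG, PAX2 and SOX9 fall in RBE and rise in SNU1079, ELF3, IRF1, SUSD6 and RGS2 do the reverse, SESN1 and EGR1 were called in RBE and not in SNU1079, and CCNB2 in SNU1079 and not in RBE.

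Most inflammatory genes had a higher interaction. Of 15 NF-kB pathway and cytokine genes expressed in both lines, 9 had a higher interaction and 1, NFKBIZ, a lower one (10 and 0 when scaled to ribosomal protein genes), with a median of 1.27 against 0.03 over all genes. In RBE 11 of them rose and 2 fell, and in SNU1079 13 rose and 2 fell. Over all 13043 genes 8.84% had a higher and 7.56% a lower interaction, and the counts of this and later lists are to be read beside these shares. CCL20, a chemokine that attracts cells bearing CCR6 (chr2:227805739-227817564), had the highest interaction of the named genes. CCL20 read 18.8, 7.85 and 11.4 in the RBE DMSO libraries, 44.1, 32.4 and 21.1 in RBE YC-1, 0, 0 and 1.18 in SNU1079 DMSO and 265, 159 and 285 in SNU1079 YC-1. SNU1079 was listed at 0 in 2 of its DMSO libraries and was above every RBE library in each YC-1 library. Its fitted difference of 6.16 (adjusted p = 2.64e-07) rests on a group near 0 and is no fold change. CXCL8, the neutrophil chemokine interleukin-8 (chr4:73740506-73743716), rose in both lines. Levels of CXCL8 were 139.6, 70.8 and 58.3 in RBE DMSO, 409.9, 317 and 392 in RBE YC-1, 145, 154 and 143 in SNU1079 DMSO and 6816, 5640 and 8019 in SNU1079 YC-1. Groups did not overlap within a line, and the effect was 2.14 ± 0.23 in RBE and 5.51 ± 0.23 in SNU1079, an interaction of 3.37 ± 0.33 (adjusted p = 7.95e-07).

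Feedback genes of the pathway did not all rise. NFKBIA, which encodes the inhibitor that holds NF-kB in the cytoplasm, fell in both lines (-0.98 in RBE and -0.33 in SNU1079), with an interaction of 0.65 ± 0.15 (adjusted p = 0.00661). NFKBIZ, a nuclear I-kappa-B protein, rose in both (1.43 in RBE and 0.60 in SNU1079). TNFAIP3, the A20 ubiquitin editor that shuts NF-kB signalling off (chr6:137867188-137883312), was at 133 ± 16.4 with DMSO and 229 ± 21.5 with YC-1 in RBE (mean ± SD, n = 3) and at 76.1 ± 17.4 and 788 ± 177 in SNU1079. BIRC3, an inhibitor-of-apoptosis ubiquitin ligase (chr11:102317450-102339403), was at 1576 ± 80.3 with DMSO and 1184 ± 181 with YC-1 in RBE, which did not pass the test (adjusted p = 0.187), and at 799 ± 200 and 3893 ± 1090 in SNU1079. Their interactions were 2.57 ± 0.25 (adjusted p = 9.92e-07) and 2.70 ± 0.37 (adjusted p = 6.28e-05). GBP1, an interferon- and cytokine-induced GTPase, changed by 0.23 in RBE and 2.62 in SNU1079, with an interaction of 2.38 ± 0.26 (adjusted p = 2.89e-06).

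Promoter stretches of 4 of these genes are printed because the list shares a regulator in its name. Of the 15 members, 12 matched the RefSeq table, and 6 of those (50%) held a kappa B match, 2 an AP-1 match and 2 a CCAAT, against 9.57%, 6.6% and 33% of all promoters. Among matched genes expressed in both lines, the shares were 11.7%, 3.72% and 35.4%. A kappa B match was held by 12.7% of matched genes with a higher interaction and 9.53% with a lower one. The list was assembled as NF-kB genes, so its kappa B share is no result of these data.
CXCL8: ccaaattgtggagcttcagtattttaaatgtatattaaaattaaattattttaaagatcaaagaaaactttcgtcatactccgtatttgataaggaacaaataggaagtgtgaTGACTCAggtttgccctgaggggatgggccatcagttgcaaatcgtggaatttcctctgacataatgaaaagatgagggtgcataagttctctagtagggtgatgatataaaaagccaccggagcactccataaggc
CCL20: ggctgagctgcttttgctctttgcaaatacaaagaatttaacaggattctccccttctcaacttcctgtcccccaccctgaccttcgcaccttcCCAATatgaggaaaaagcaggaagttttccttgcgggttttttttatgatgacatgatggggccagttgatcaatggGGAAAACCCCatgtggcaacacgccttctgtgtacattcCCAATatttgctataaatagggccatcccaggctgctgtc
TNFAIP3: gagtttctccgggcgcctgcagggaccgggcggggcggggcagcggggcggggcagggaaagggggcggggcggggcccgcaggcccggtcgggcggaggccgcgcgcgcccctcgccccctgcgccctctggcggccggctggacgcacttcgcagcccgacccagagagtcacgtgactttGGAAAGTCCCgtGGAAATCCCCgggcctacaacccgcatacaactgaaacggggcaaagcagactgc
BIRC3: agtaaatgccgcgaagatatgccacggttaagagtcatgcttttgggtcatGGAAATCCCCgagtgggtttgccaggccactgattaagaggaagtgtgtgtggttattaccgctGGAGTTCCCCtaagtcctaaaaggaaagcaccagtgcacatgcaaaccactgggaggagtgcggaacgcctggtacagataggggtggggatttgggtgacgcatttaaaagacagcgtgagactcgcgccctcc
In the stretch of CXCL8 (chr4:73740319-73740568, plus strand) an AP-1 match stood 137 bases before the start. The fixed kappa B pattern had no match there, which does not exclude a variant kappa B site. CCL20 (chr2:227813592-227813841, plus strand) had a kappa B match at 79 bases and CCAAT at 156 and 40 bases. TNFAIP3 (chr6:137867009-137867258, plus strand) had kappa B matches at 67 and 55 bases, and BIRC3 (chr11:102317234-102317483, plus strand) at 199 and 135 bases.

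For part of these genes the difference between the lines grew from 6 h to 16 h. The 6 h interaction was 0.76 for CXCL8 (adjusted p = 0.337), -0.10 for TNFAIP3 (0.956), -0.45 for BIRC3 (0.742) and -0.54 for GBP1 (0.415), while that of CCL20 was already called (3.07, 0.00373). Tested directly, the change of the interaction between the times was called at 154 of the 13043 genes (1.18%), 79 of them higher (0.606%) and 75 lower (0.575%) at 16 h, and, in the list, at 5 higher and 0 lower: it was 2.61 for CXCL8 (adjusted p = 0.00629), 2.67 for TNFAIP3 (0.00054) and 3.15 for BIRC3 (0.00423). The vehicle libraries moved beside this result: in SNU1079, DMSO at 16 h was below DMSO at 6 h for 12 of the 15 members (median -1.27), against 6.06% of all genes lower and 10.6% called in either direction, and in RBE for 1 of 15, against 0.0537%. CXCL8 was at 713 ± 96.6 in SNU1079 DMSO at 6 h and 147 ± 6.11 at 16 h, a difference of -2.26, TNFAIP3 differed by -2.56, BIRC3 by -3.06 and GBP1 by -2.90. These differences and the interaction at 16 h share the SNU1079 DMSO libraries at 16 h, and how much of the interaction goes with the vehicle was not tested.

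**Figure D3:**
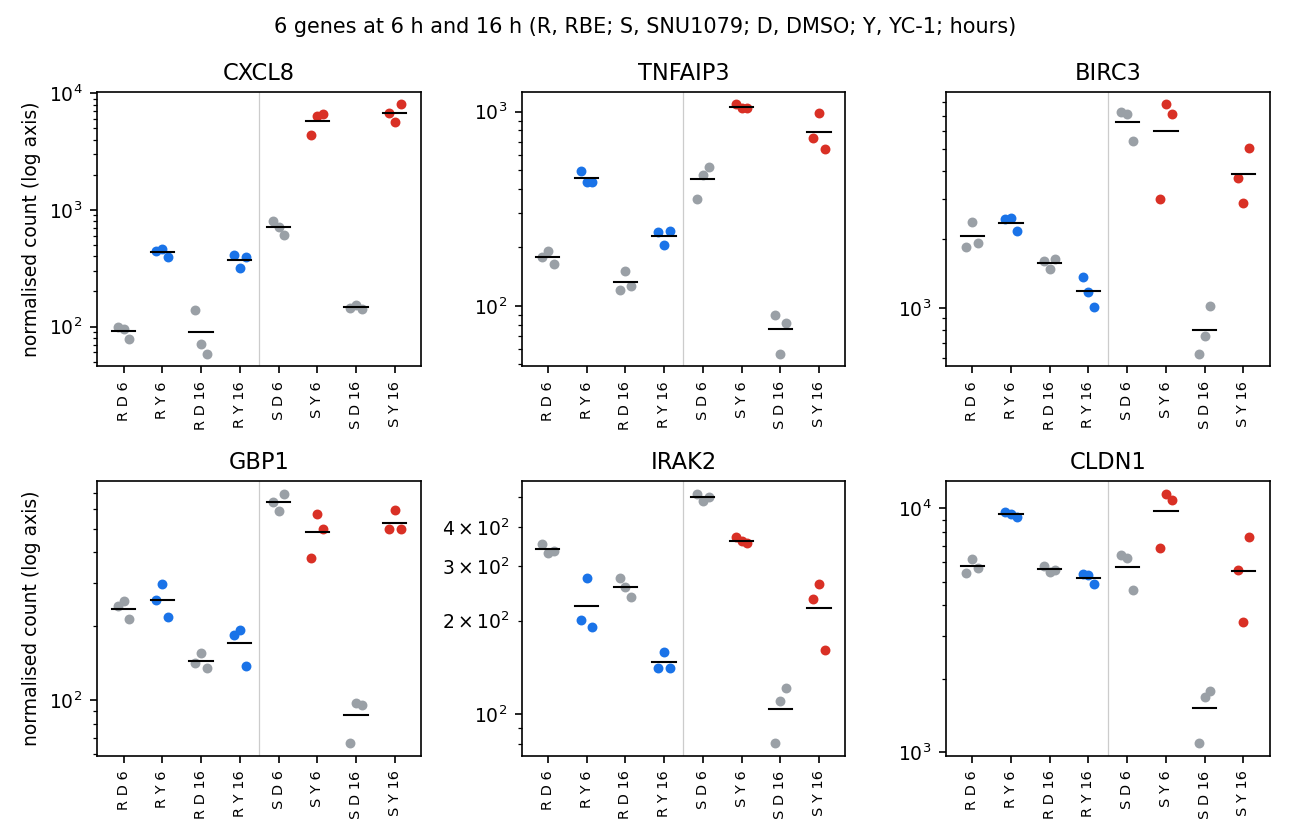
Normalised counts (log axis) of CXCL8, TNFAIP3, BIRC3, GBP1, IRAK2 and CLDN1 in DMSO and YC-1 libraries of RBE and SNU1079 at 6 h and 16 h. In SNU1079 the DMSO points drop from 6 h to 16 h for all 6 genes, while the RBE DMSO differences lie between -0.71 (GBP1) and -0.04 (CLDN1) on the log2 scale and were not called.

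At 8 of 22 cholesterol genes the interaction was higher. Of these 22 genes of cholesterol synthesis and uptake, 13 fell and 3 rose in RBE, and 11 fell and 4 rose in SNU1079. The interaction was lower at 1, FDPS (11 higher and 0 lower when scaled to ribosomal protein genes), and the median was 0.51. SQLE, squalene epoxidase, moved by -2.87 in RBE and -0.43 in SNU1079, an interaction of 2.44 ± 0.24 (adjusted p = 7.95e-07). SQLE was also called at 6 h (1.20).

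Fatty acid synthesis genes were called in both directions. Of 12, 3 had a higher and 2 a lower interaction (against 8.84% and 7.56% of all genes), with a median of 0.04. The 2 lower calls became 0 without RBE DMSO replicate 2, RBE YC-1 replicate 2 or SNU1079 DMSO replicate 3, and 0 (with 2 higher) from the 16 h libraries alone or 0 (with 4 higher) when scaled to ribosomal protein genes. SREBF1, the transcription factor of lipogenic genes, was at 849 ± 88.3 with DMSO and 567 ± 41.2 with YC-1 in RBE and at 1704 ± 182 and 2110 ± 291 in SNU1079, an interaction of 0.88 ± 0.22 (adjusted p = 0.00854). ACLY, which supplies cytosolic acetyl-CoA, fell by 0.35 in RBE and rose by 0.18 in SNU1079, an interaction of 0.53 ± 0.11 (adjusted p = 0.00219), and was 1 of the 185 opposite genes, as was the cholesterol gene DHCR7. BAAT, which conjugates bile acids to amino acids, was at 51 ± 3.17 with DMSO and 23 ± 10.6 with YC-1 in RBE and at 1431 ± 216 and 88 ± 31.8 in SNU1079, an interaction of -2.86 ± 0.44 (adjusted p = 0.000196).

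Cell cycle genes fell further in SNU1079. Of 30 genes of G2 and mitosis, 17 had a lower interaction and 0 higher (median -0.65). In RBE 17 fell and 4 rose, and in SNU1079 27 fell. Of 30 genes of G1/S and DNA replication, 17 were lower and 0 higher (median -0.64), with 15 falling and 7 rising in RBE and 26 falling in SNU1079. Of 22 Fanconi and homologous recombination genes, 8 were lower (median -0.41). These counts shrink under scaling to ribosomal protein genes, to 3, 6 (with 1 higher) and 4, with medians of -0.29, -0.29 and -0.06.

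CCNB2, cyclin B2, was at 2026 ± 33.2 with DMSO and 1791 ± 52.4 with YC-1 in RBE (adjusted p = 0.232) and at 808 ± 84.1 and 275 ± 48.9 in SNU1079, an interaction of -1.38 ± 0.17 (adjusted p = 2.36e-05). AURKB, the kinase of the chromosomal passenger complex, rose by 0.26 in RBE and moved by -1.01 in SNU1079, so that it was an opposite gene. MAD2L1, of the spindle checkpoint, moved by -0.03 in RBE and -1.11 in SNU1079, an interaction of -1.08 ± 0.28 (adjusted p = 0.0133). The promoter of CCNB2 is printed because its letters hold the elements by which mitotic genes are known: of 24 list members matched in the RefSeq table, 11 (45.8%) held CHR and 19 (79.2%) held CCAAT, against 13.6% and 33% of all promoters. Among matched genes expressed in both lines the shares were 8.02% and 35.4%, and among those with a lower interaction 9.14% and 43.1%.
CCNB2: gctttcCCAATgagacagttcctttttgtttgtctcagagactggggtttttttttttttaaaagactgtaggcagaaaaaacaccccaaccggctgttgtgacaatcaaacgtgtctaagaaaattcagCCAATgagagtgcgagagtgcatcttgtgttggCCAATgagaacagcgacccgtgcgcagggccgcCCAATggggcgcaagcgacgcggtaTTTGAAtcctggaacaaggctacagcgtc
This stretch (chr15:59104896-59105145, plus strand) held CHR at 29 bases before the start and CCAAT at 244, 120, 87 and 54 bases. Of other mitotic genes searched and not printed, PLK1 and CDC20 held both elements, and CCNB1 and CENPF held CCAAT and no CHR.

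In the replication list FEN1, the flap endonuclease of lagging-strand synthesis, was at 2743 ± 40.4 with DMSO and 1903 ± 106 with YC-1 in RBE and at 2909 ± 162 and 710.3 ± 239 in SNU1079, an interaction of -1.56 ± 0.22 (adjusted p = 6.84e-05) that was also called at 6 h (-1.22). RFC5, a clamp-loader subunit, rose in RBE (1580 ± 19.3 with DMSO, 2653 ± 61.6 with YC-1) and fell in SNU1079 (1117 ± 95.9 and 804 ± 68.2). CDC45, part of the replicative helicase, moved by 0.58 in RBE and -0.61 in SNU1079. RFC5 and CDC45 were opposite genes together with MCM7, RFC2 and TYMS of the same list. PRIM1, the primase subunit, moved by -0.37 in RBE and -1.69 in SNU1079. Among repair genes RAD51C, of homologous recombination, moved by 0.83 in RBE and -0.57 in SNU1079 and was opposite as well, and EXO1, an exonuclease of mismatch repair and end resection, moved by -0.02 in RBE and -1.07 in SNU1079, an interaction of -1.05 ± 0.14 (adjusted p = 6.1e-05).

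The 2 cell cycle lists had different counts at the earlier time. At 6 h, 14 of the 30 replication genes had a lower interaction, while limma called 0 of the 30 mitotic genes in either direction (5 at an unadjusted p under 0.05). Over all genes the 6 h shares were 0.751% higher and 0.958% lower, so 0 of 30 is near them. The change of the interaction from 6 h to 16 h was lower at 6 mitotic genes (median -0.75), among them CCNB2 (-1.23, adjusted p = 0.0194), and higher at 1 replication gene (median -0.12). Over all genes this change was lower at 0.575% and higher at 0.606%. In SNU1079, DMSO at 16 h was above DMSO at 6 h for 24 of the 30 mitotic genes (median 0.76, against 4.58% of all genes) and for 9 of the 30 replication genes, with 1 below. These comparisons share the SNU1079 DMSO libraries at 16 h with the interaction, and the part of the vehicle in it was not tested.

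p53 targets rose in both lines, with a lower interaction at a few. Of 26, 22 rose and 2 fell in RBE, 15 rose and 1 fell in SNU1079, and the interaction was lower at 4 and higher at 0 (median -0.41, or -0.05 when scaled to ribosomal protein genes, where 2 were higher and 2 lower). SESN1, a stress-induced regulator of mTORC1, was at 452 ± 22.6 with DMSO and 1318 ± 102 with YC-1 in RBE and at 265 ± 20.8 and 328 ± 41.1 in SNU1079 (adjusted p = 0.121), an interaction of -1.24 ± 0.23 (adjusted p = 0.00105). DDB2, of nucleotide excision repair, moved by 0.96 in RBE and -0.06 in SNU1079, an interaction of -1.02 ± 0.14 (adjusted p = 5.18e-05). BTG2, an antiproliferative factor, rose in both lines (2.64 in RBE and 1.82 in SNU1079). CDKN1A, the p21 inhibitor of cyclin-dependent kinases, rose by 2.14 in RBE and 1.91 in SNU1079, and its interaction of -0.24 ± 0.17 did not pass the test (adjusted p = 0.394).

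Immediate early factors were induced in both lines and the largest difference was EGR1. Of 18, 14 rose and 2 fell in RBE, 12 rose in SNU1079, and the interaction was higher at 3 and lower at 5 (median -0.23, or 0.13 when scaled to ribosomal protein genes, with 6 higher and 5 lower). EGR1 is a zinc finger factor induced within minutes of ERK activation (chr5:138465490-138469315). In RBE, EGR1 was at 31.3, 27.6 and 29.1 under DMSO and 577, 463 and 512 under YC-1, and in SNU1079 at 202, 270.4 and 266 and 325, 215 and 475. RBE rose from the lowest values of the 12 libraries without overlap, while in SNU1079 the YC-1 and DMSO libraries overlapped. The effects were 4.09 ± 0.26 and 0.40 ± 0.26 (adjusted p = 0.203), an interaction of -3.69 ± 0.36 (adjusted p = 9.92e-07). In SNU1079 the DMSO libraries at 16 h, which this comparison uses, were above those at 6 h by 2.14 (adjusted p = 1.58e-05), and the 6 h interaction was -1.17 (adjusted p = 0.133), a change between the times of -2.53 (adjusted p = 0.0206). FOS rose by 6.25 in RBE and 4.30 in SNU1079 and FOSB by 4.74 in RBE and 2.83 in SNU1079, with lower interactions, and KLF6 fell by 0.49 in RBE and rose by 0.91 in SNU1079.

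The EGR1 promoter is printed as the stretch of the gene with the largest difference in this list. Of the 18 members 15 matched, of which 2 (13.3%) held CArG and 3 (20%) CRE, against 1.14% and 1.77% of all promoters. Among matched genes expressed in both lines these shares were 0.991% and 2.99%.
EGR1: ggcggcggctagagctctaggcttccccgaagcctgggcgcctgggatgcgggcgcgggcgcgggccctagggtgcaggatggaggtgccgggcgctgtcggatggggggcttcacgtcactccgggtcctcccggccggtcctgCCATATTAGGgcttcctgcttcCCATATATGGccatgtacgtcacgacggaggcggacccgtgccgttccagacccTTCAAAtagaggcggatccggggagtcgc
EGR1 (chr5:138465229-138465478, plus strand) held CArG at 105 and 83 bases before the start and CHR at 29 bases.

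The amino acid and ATF4 programme had higher interactions at part of its genes and lower ones at a few. Of 22 ATF4 and CHOP stress genes, 15 rose and 3 fell in RBE, 19 rose and 1 fell in SNU1079, and the interaction was higher at 7 and lower at 3 (8 and 1 when scaled to ribosomal protein genes; median 0.26). ASNS, asparagine synthetase, was at 3526 ± 117 with DMSO and 11550 ± 42.5 with YC-1 in RBE and at 1054 ± 161 and 10810 ± 1370 in SNU1079, an interaction of 1.65 ± 0.15 (adjusted p = 4.51e-07) and already 1.59 at 6 h. SLC7A5, the large neutral amino acid carrier, moved by -0.05 in RBE and 1.86 in SNU1079, an interaction of 1.91 ± 0.21 (adjusted p = 3.4e-06). SLC7A11, the cystine carrier, moved by 0.50 in RBE and 2.27 in SNU1079, and PCK2, the mitochondrial PEP carboxykinase, by 2.32 in RBE and 3.57 in SNU1079. The 3 members with a lower interaction are not described here. ATF4 itself, the factor these genes answer to, was an opposite gene. ATF3 rose by 6.63 in RBE and 5.76 in SNU1079 and DDIT3, which encodes CHOP, by 2.94 in RBE and 2.30 in SNU1079; their interactions of -0.87 and -0.64 did not pass the test (adjusted p = 0.0712 and 0.0736).

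Heat shock genes had higher interactions at 8 of 19 and lower ones at 0 (median 0.25). In RBE 3 rose and 8 fell, and in SNU1079 9 rose and 5 fell. HSPA1B, an inducible HSP70, fell in RBE (1160 ± 68.2 with DMSO, 493 ± 47.2 with YC-1) and rose in SNU1079 (593 ± 98 and 922 ± 327), an interaction of 1.83 ± 0.27 (adjusted p = 0.000137); HSPA1A, its near-identical neighbour, can share its reads and moved by -0.96 in RBE and 0.26 in SNU1079. HSPA8, the constitutive HSP70, fell in both lines (-2.67 in RBE and -1.70 in SNU1079). HSPH1, an HSP110 co-chaperone, moved by -0.31 in RBE and 0.77 in SNU1079. In the unfolded protein response 1 of 18 was higher, HERPUD1 (0.19 in RBE and 1.5 in SNU1079), and 1 lower, HSPA5 (0.73 in RBE and 0.28 in SNU1079), or 3 and 0 when scaled to ribosomal protein genes.

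Part of the growth factor, matrix and TGF-beta genes had higher interactions. Of 22 genes of the EGF receptor family, its ligands and RAS feedback, 9 had a higher interaction and 0 a lower one (median 0.55), with 9 falling and 6 rising in RBE and 4 falling and 10 rising in SNU1079. DUSP4, SPRY4, SPRY2 and TGFA were opposite genes. TGFA, transforming growth factor alpha, was at 4561 ± 42.9 with DMSO and 2286 ± 122 with YC-1 in RBE and at 1868 ± 182 and 2542 ± 181 in SNU1079, an interaction of 1.44 ± 0.13 (adjusted p = 3.15e-07). EGFR, its receptor, moved by -1.70 in RBE and -0.32 in SNU1079, an interaction of 1.38 ± 0.18 (adjusted p = 3.38e-05). At 6 h 6 members of the list were higher and 1 lower, against 0.751% and 0.958% of all genes. In SNU1079, DMSO at 16 h was below DMSO at 6 h for 9 of the 22 and above it for 2 (median -0.33, against 6.06% and 4.58% of all genes), and the part of the vehicle was not tested.

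Of 24 extracellular matrix and integrin genes, 12 had a higher interaction and 0 a lower one (median 0.67), with 11 falling and 4 rising in RBE and 3 falling and 10 rising in SNU1079. THBS1, thrombospondin-1, was at 21230 ± 492 with DMSO and 5353 ± 410 with YC-1 in RBE and at 38750 ± 3860 and 32650 ± 5780 in SNU1079, an interaction of 1.73 ± 0.17 (adjusted p = 1.09e-06). COL4A1, a basement membrane collagen, moved by -1.09 in RBE and -0.05 in SNU1079, ITGA6, a laminin receptor subunit, by -2.01 in RBE and -0.94 in SNU1079, and LAMC1, a laminin chain and an opposite gene, by -0.57 in RBE and 0.54 in SNU1079. MMP14, a membrane-bound collagenase activator, was at 1909 ± 198 with DMSO and 2748 ± 91.1 with YC-1 in RBE (adjusted p = 0.142) and at 14.7 ± 8.11 and 320.2 ± 42.3 in SNU1079, an interaction of 3.97 ± 0.42 (adjusted p = 2.7e-06).

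Of 21 TGF-beta and SMAD genes, 6 had a higher and 2 a lower interaction (11 and 0 when scaled to ribosomal protein genes; median 0.37), and PMEPA1, BMP2 and INHBA were opposite genes. PMEPA1, a feedback inhibitor of TGF-beta receptor signalling, was at 11560 ± 541 with DMSO and 6876 ± 196 with YC-1 in RBE and at 1024 ± 39.5 and 2766 ± 401 in SNU1079, an interaction of 2.17 ± 0.18 (adjusted p = 1.35e-07), called also at 6 h (1.69). BMP2, a bone morphogenetic protein, moved by -0.49 in RBE and 1.26 in SNU1079. INHBA, the activin A subunit, moved by -0.54 in RBE and 0.99 in SNU1079, with a 6 h interaction of the other sign (-1.41, adjusted p = 0.0151). YAP and TEAD targets were higher at 5 of 18 and lower at 5, or 7 and 1 when scaled to ribosomal protein genes and 4 and 1 from the 16 h libraries alone: CRIM1 (-1.68 in RBE and -0.30 in SNU1079) and the muscle ankyrin-repeat gene ANKRD1 (-1.39 in RBE and -0.26 in SNU1079) were higher, and DLC1, a GTPase-activating protein (-0.47 in RBE and -2.63 in SNU1079), was lower. In the Wnt pathway 4 of 16 were higher (median 0.66), a count that fell to 1 without SNU1079 YC-1 replicate 1 or from the 16 h libraries alone, and was 10 when scaled to ribosomal protein genes; FZD7, a Frizzled receptor, fell in both lines (-2.02 in RBE and -1.02 in SNU1079).

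SOX9, the duct progenitor factor and a bile duct marker, was an opposite gene. It was at 1460 ± 84.2 with DMSO and 1015 ± 33.8 with YC-1 in RBE and at 360.1 ± 23.6 and 1439 ± 353 in SNU1079, an interaction of 2.49 ± 0.20 (adjusted p = 8.43e-08) that was also called at 6 h (1.39). With DMSO the gap between the lines was -2.02 and with YC-1 0.48. Of the 9 bile duct markers expressed in both lines AQP1, a water channel, had a lower interaction (1.44 in RBE and 0.43 in SNU1079) and the other 7 were not called (3 higher and 0 lower of the 9 when scaled to ribosomal protein genes). CLDN1, a tight junction protein, moved by -0.11 in RBE and 1.82 in SNU1079 and ZEB1, a repressor of epithelial genes, by -1.02 in RBE and 0.07 in SNU1079.

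**Figure D4:**
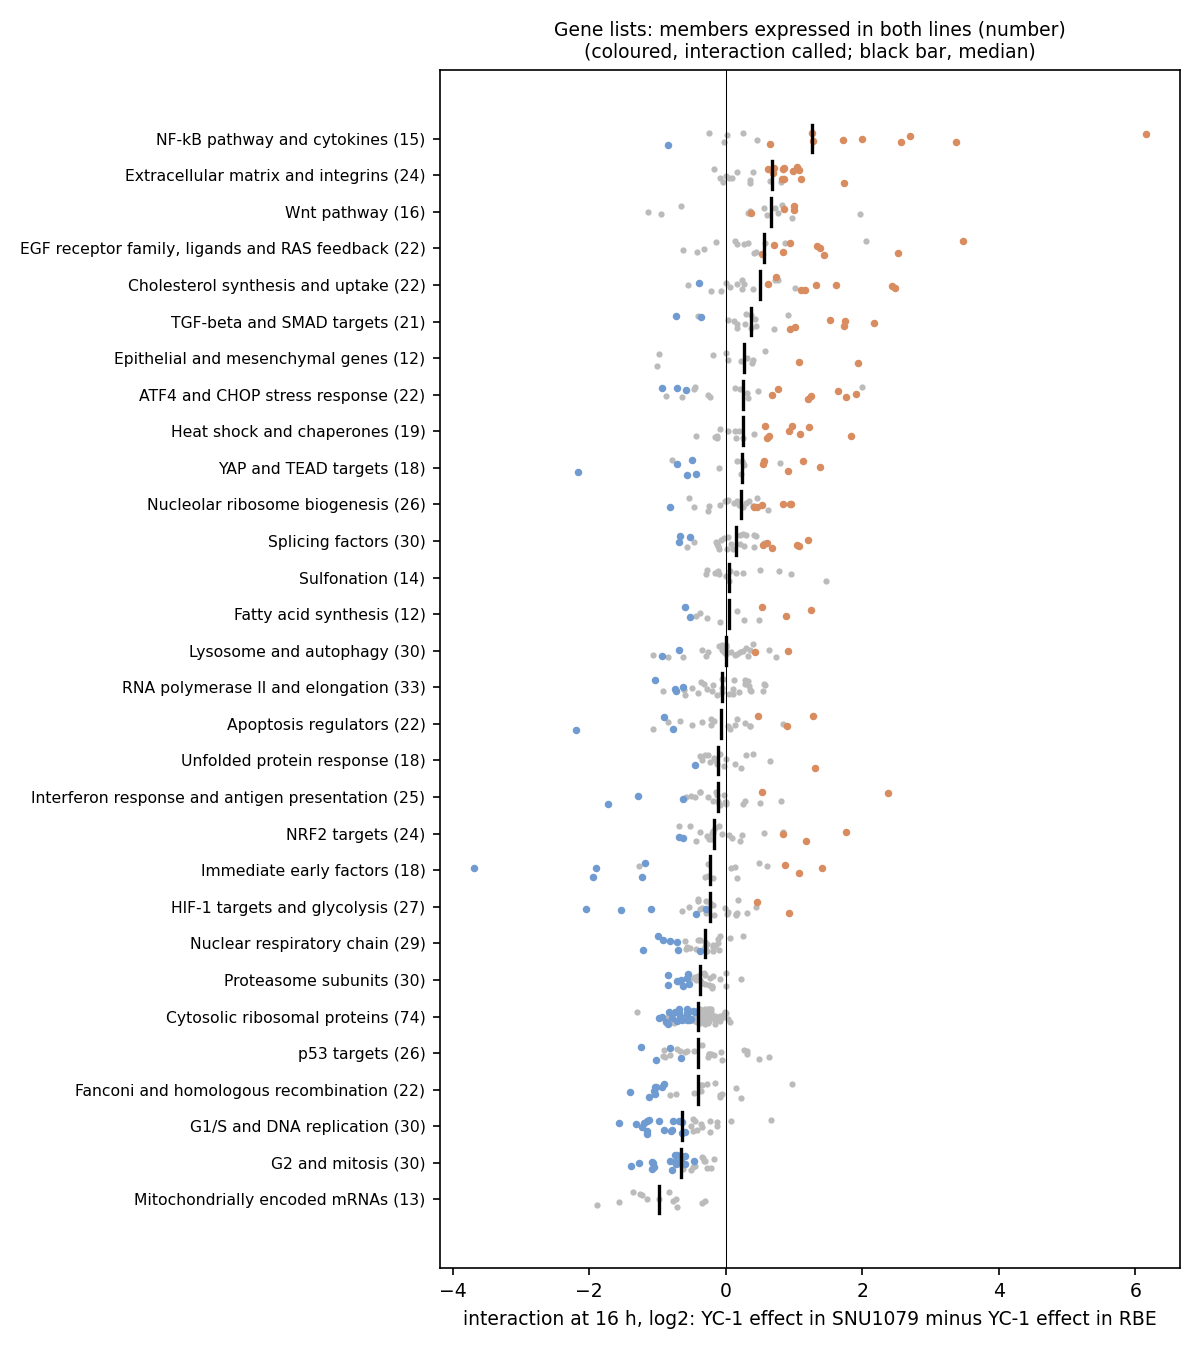
Interaction (log2, SNU1079 effect minus RBE effect at 16 h) of each member expressed in both lines, one row per gene list, with a bar for the list's median. NF-kB, matrix, EGF receptor and cholesterol genes lie mostly above 0, with medians of 1.27, 0.67, 0.55 and 0.51, and both cell cycle lists lie below, with medians of -0.65 and -0.64.

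Part of the ribosomal protein and other housekeeping genes had lower interactions. Of 74 cytosolic ribosomal protein genes 73 rose in RBE (median 0.95), and 55 rose and 1 fell in SNU1079 (median 0.55). The interaction was lower at 20 and higher at 0 (median -0.40), between 13 without RBE DMSO replicate 3 and 29 without SNU1079 YC-1 replicate 1 or 2, at 6 from the 16 h libraries alone, and at 3 when scaled to these genes themselves. RPS13 moved by 1.06 in RBE and 0.21 in SNU1079 and RPL35A by 0.97 in RBE and 0.10 in SNU1079. Proteasome subunits were lower at 8 of 30 (3 to 13 without single libraries), among them PSMB1 (0.57 in RBE and -0.28 in SNU1079), and nuclear genes of the respiratory chain at 7 of 29 (2 without RBE DMSO replicate 3, to 9), among them COX5A (0.85 in RBE and -0.36 in SNU1079), both opposite genes. Neither count held when scaled to ribosomal protein genes, with 1 lower proteasome subunit (median -0.02) and 2 higher and 1 lower respiratory chain genes (median 0.05), and from the 16 h libraries alone they were 4 and 2. Of the 13 mitochondrially encoded mRNAs 0 were called by limma, also at an unadjusted p under 0.05, and their median of -0.98 became 0.64 without SNU1079 YC-1 replicate 2, which is the library with the low mitochondrial share. Nucleolar genes were higher at 6 of 26 (11 when scaled to ribosomal protein genes), with 1 lower: UTP20 (-2.22 in RBE and -1.28 in SNU1079) and POLR1A, the large subunit of RNA polymerase I (-1.25 in RBE and -0.41 in SNU1079), fell less in SNU1079, and FBL, the fibrillarin methyltransferase, was lower (0.45 in RBE and -0.36 in SNU1079).

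Gene length ran through the comparison. In both lines long genes fell and short ones rose: from genes under 10 kb to genes over 300 kb the median effect went through 0.56, 0.36, -0.11, -0.94 and -1.36 in RBE. For SNU1079 these medians were 0.37, 0.36, -0.03, -0.74 and -1.17. The median interaction rose along the same bins, from -0.15 through 0.02, 0.09 and 0.17 to 0.34. The share called higher went from 4.74% to 17.1% and the share called lower from 11.1% to 4.77%. Across the 12724 genes with coordinates, the Spearman correlation with the span was -0.49 for RBE, -0.38 for SNU1079 and 0.19 for the interaction; the genes share the same 12 libraries and are not replicates. Of 200 lincRNAs, 38 were lower and 4 higher (21% called).

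PDE4D lay at the far end of both properties, a cAMP phosphodiesterase whose gene is very long (chr5:58969038-60522120) and with the lowest interaction of the named genes. For PDE4D the values were 236, 219 and 214 (RBE DMSO), 95.5, 118 and 82.1 (RBE YC-1), 94.5, 247 and 293 (SNU1079 DMSO) and 21.7, 4.01 and 0 (SNU1079 YC-1). The SNU1079 YC-1 libraries were at or near 0, the RBE YC-1 libraries lay below their DMSO libraries without overlap, and the SNU1079 DMSO libraries were spread. The RBE effect of -1.19 did not pass the test (adjusted p = 0.142) and the interaction of -4.11 ± 0.95 (adjusted p = 0.00555) was already -4.41 at 6 h (adjusted p = 0.0151).

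**Figure D5:**
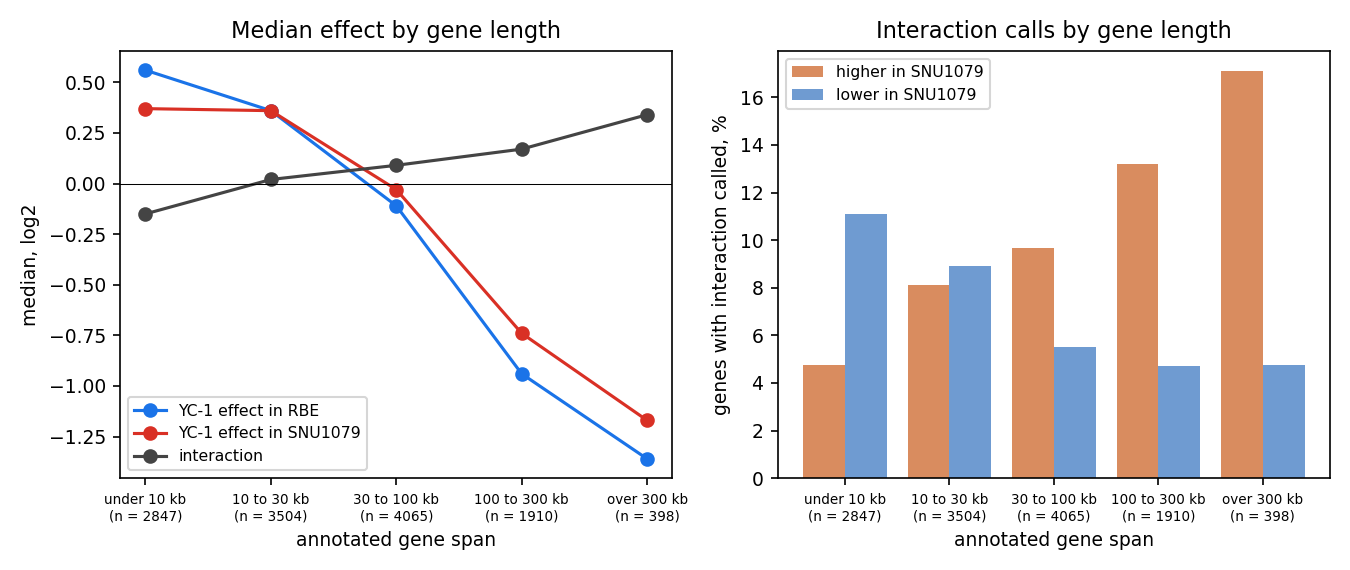
Median log2 effect of YC-1 in RBE and SNU1079 and median interaction (left) and percent of genes called higher or lower in SNU1079 (right) in 5 bins of gene span, for 12724 genes with coordinates. The effects run from positive in short genes to negative in long ones, and the interaction runs the other way, from -0.15 to 0.34.

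Most interactions of 16 h had the same sign at 6 h and were smaller. At 6 h 223 of the 13043 genes were called (1.71%), 98 of them higher (0.751%) and 125 lower (0.958%). All values at 6 h include SNU1079 YC-1 replicate 1 of that time, which stood apart from its mates. Of the 2139 genes called at 16 h, 1581 (73.9%) had the same sign at 6 h, against 57.2% of the genes not called. Their median 6 h interaction was 0.22 for those higher at 16 h, where the 16 h median was 0.93, and -0.20 for those lower, where it was -0.87. Both times called 142 genes with the same sign, which is 63.7% of the 6 h calls and 6.64% of the 16 h calls, and 4 with opposite signs. The 2 times share no library. Of the opposite genes, 79 of 100 that rose in SNU1079 and 64 of 85 that fell had that sign at 6 h. DMSO libraries differed between the times at 1387 genes in SNU1079 (10.6%) and at 8 in RBE (0.0613%). In SNU1079 that difference was called lower at 14 of 26 nucleolar genes, 9 of 24 NRF2 targets, 6 of 19 heat shock genes and 6 of 18 YAP and TEAD targets, and higher at 7 of 22 cholesterol genes.

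Among the other genes with the highest interactions, PGBD1, a transposase-derived gene, was at similar means in RBE (152 ± 24.3 and 152 ± 16.4) and stood at 12.3 ± 4.09 and 177 ± 30.8 in SNU1079, an interaction of 3.77 ± 0.32 (adjusted p = 2.2e-07). THSD1, a thrombospondin-domain protein of endothelial adhesion, moved by -1.06 in RBE (adjusted p = 0.0694) and 2.71 in SNU1079, and PALM2, a paralemmin, by -0.74 in RBE and 2.03 in SNU1079. REEP2 was listed at 0 in all 3 SNU1079 DMSO libraries and at 41.7 ± 21.2 with YC-1, so no fold is given. NPIPB6, of the same uncertain gene family as NPIPB12, moved by 1.24 in RBE and 4.05 in SNU1079. Of the 2139 called genes, 55 had a DMSO mean under 20 in at least 1 line and counted as expressed there through their YC-1 libraries. PGBD1 and REEP2 were among them, as were CCL20, MMP14 and PGF.

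Among the lowest, PGF, placental growth factor, was at 11.9 ± 2.93 with DMSO and 208 ± 21.9 with YC-1 in RBE and at 17.2 ± 2.98 and 37.8 ± 6.02 in SNU1079, an interaction of -2.94 ± 0.59 (adjusted p = 0.00197). EID2B moved by 2.0 in RBE and -0.65 in SNU1079 (adjusted p = 0.061), ARHGAP30, a GTPase-activating protein, by 2.26 and -0.24 (adjusted p = 0.377), and FAM90A1 rose in both lines (5.77 in RBE and 3.29 in SNU1079). LINC00847, a long noncoding RNA, was an opposite gene (0.53 in RBE and -1.93 in SNU1079, interaction -2.46 ± 0.22 (adjusted p = 3.15e-07)). BMF, a BH3-only death gene, fell in both (-1.76 in RBE and -3.96 in SNU1079), and PMAIP1, which encodes NOXA, rose in both (3.36 in RBE and 4.65 in SNU1079), with interactions of -2.19 ± 0.35 (adjusted p = 0.000241) and 1.28 ± 0.30 (adjusted p = 0.00653).

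HIF-1 targets were higher at 2 and lower at 5 of 27 (median -0.23, or 0.12 when scaled to ribosomal protein genes, with 4 higher and 2 lower). Without single libraries the lower count was 2 (RBE DMSO replicate 1, RBE YC-1 replicate 1 or 2) to 8 (SNU1079 YC-1 replicate 2). ADM, adrenomedullin, rose by 3.21 in RBE and 1.17 in SNU1079, an interaction of -2.04 ± 0.40 (adjusted p = 0.00178), HK2, hexokinase 2, moved by -0.57 in RBE and -2.11 in SNU1079, and PFKFB3, which sets the allosteric activator of phosphofructokinase, fell in both (-1.89 in RBE and -0.95 in SNU1079). HIF1A itself moved by -0.33 in RBE and 0.00 in SNU1079, and its interaction of 0.34 ± 0.19 did not pass the test (adjusted p = 0.261). MYC fell in both lines (-1.29 in RBE and -0.68 in SNU1079), by less in SNU1079 (0.61 ± 0.16 (adjusted p = 0.0128)). NRF2 targets were higher at 3 and lower at 2 of 24, splicing factors at 6 and 3 of 30, interferon genes at 2 and 3 of 25, lysosome and autophagy genes at 2 and 2 of 30 and apoptosis regulators at 3 and 3 of 22. When scaled to ribosomal protein genes these counts were 8 and 0, 11 and 0, 2 and 1, 8 and 1, and 6 and 3, and the 2 lower NRF2 calls became 0 without RBE DMSO replicate 3, RBE YC-1 replicate 1, SNU1079 DMSO replicate 1 or 2, or SNU1079 YC-1 replicate 3. Under the deposited scaling, the NRF2, interferon, lysosome and unfolded protein response counts were near the shares of all genes (8.84% higher and 7.56% lower). RNA polymerase II and elongation genes were lower at 4 of 33 and higher at 0, or higher at 6 and lower at 0 when scaled to ribosomal protein genes.

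No difference between the lines was called at the sulfonation genes. Of 14 expressed in both, 0 were called by limma (2 at an unadjusted p under 0.05), or 3 higher when scaled to ribosomal protein genes, with a median of 0.06. SULT1A1 was at 1551 ± 112 with DMSO and 1792 ± 124 with YC-1 in RBE and at 1447 ± 229 and 1415 ± 392 in SNU1079. Its interaction was -0.27 ± 0.22 (adjusted p = 0.472), and it turned to 0.09 when scaled to ribosomal protein genes. SULT1A copies are alike in sequence and can share reads.

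At the edge of the expression minimum of 20, the called genes just inside were SRSF12 (means of 45.2 in RBE and 20.1 in SNU1079, interaction 2.80), DYNLRB2-AS1 (36.5 and 20.3, -1.96) and SEMA6C (20.5 and 103, 2.04). Just outside were SHC3 (19.9 and 28.5, 2.41), TEX22 (19.9 and 160, -2.42) and MAP3K4-AS1 (42.7 and 19.04, -1.79). They are given as a description of the limit only.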

How the data were processed

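Messenger RNA of 24 libraries was sequenced after TruSeq Stranded mRNA preparation, per the labels' protocols. The authors deposited normalised counts, a signal per gene whose whole reads could not be recovered, made with STAR and DESeq2 (versions unstated) against hg38, per the submitters' processing notes. Strand setting and counting tool: not given in the sources used here. Times follow the titles and design text. A time label contradicts them, with 16 h for every DMSO library and 6 h for every YC-1 library.

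Values were fitted as log2(normalised count + 1) with limma 3.58.1 (R 4.3.3), with an intensity trend and a mean for each of 8 groups (16 residual degrees of freedom). The spread of a gene was estimated over all groups together and not per line. The 17860 genes at 10 or more in at least 3 libraries were tested, two-sided, with Benjamini-Hochberg adjustment over all of them and a threshold of 0.05. Such a scale understates changes of low genes. The low end is limited by an unknown depth per gene.

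Named genes were, among called genes that averaged 100 or more in some group, the 12 highest and 12 lowest interactions, 10 opposite genes per orientation and up to 4 members per list, plus 6 genes of interest and 3 genes on each side of the expression minimum. Members and the 34 lists were chosen with earlier results of these data known. The test of change between times was added after values were seen. Called genes without a name (93) and list members without a match (among them ACACA, BOP1, PSMB3 and PECAM1) are not described, nor are some named genes whose call rested on single libraries. A few further genes are not reported here. Coordinates are GENCODE 29 on GRCh38, found for 12724 of the genes expressed in both lines, and promoters are RefSeq on GRCh38.p14. Alternatives covered pseudocount, filter, minimum, scaling, variance model, library weights, libraries, replicate block and pooled times. The main fit did not pair samples by replicate number.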

Additional observations from a re-analysis of the deposited data

Results flagged for a closer look

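For each of these genes the YC-1 effects of the 2 lines were called with opposite signs and the interaction test called their difference. Higher in SNU1079 were DUSP4 (interaction 3.48), RNF207 (3.01), MFNG (2.77), SPRY4 (2.53), NPIPB12 (1.96), PAX2 (1.94), PLA2G6 (1.91), IRAK2 (1.87), WDR81 (1.80) and ZDHHC11 (1.69). Lower were DLGAP1-AS2 (-3.22), CASP10 (-2.26), ELF3 (-2.23), SUSD6 (-2.16), HLF (-1.80), TMSB15B (-1.76), IRF1 (-1.72), RGS2 (-1.71), PMS1 (-1.66) and TNFSF9 (-1.61).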

How the results depend on the processing

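The interaction count over all genes tested (2608) became 1612 with the 12 libraries at 16 h alone, 4867 with library weights and 754 with both times pooled, and over genes expressed in both lines (2139) it became 1345, 4068 and 521. Opposite genes (185) became 354 with weights and 74 with times pooled. Genes called at both times (142) became 803 with weights and 89 when scaled to ribosomal protein genes. They became 217 without SNU1079 DMSO replicate 1 and SNU1079 YC-1 replicate 2, an alternative chosen after seeing the data. It keeps SNU1079 YC-1 replicate 3, which stood as far from its mates. Without single libraries the counts were 1871 to 2924 for all genes, 1525 to 2439 for genes expressed in both lines, 139 to 210 for opposite genes, 7416 to 8493 for RBE and 7294 to 8136 for SNU1079. Without RBE DMSO replicate 3 the count was lowest, and 99.3% of those calls were among the original ones. Same-numbered DMSO and YC-1 libraries had r of 0.09, -0.05 and 0.02 in RBE and -0.03, -0.06 and 0.19 in SNU1079. Differently numbered ones had r of -0.11 to 0.1 in RBE and -0.22 to 0.21 in SNU1079. These values do not show whether same-numbered samples were handled together. With the replicate block the counts were 2115, 1753 and 159, 8039 in RBE, 7986 in SNU1079, and 83 at both times. With a minimum mean of 100 there were 1872 calls, and without a filter 1709. Scaling to ribosomal protein genes called 2881, of which 1445 were shared, and turned the interactions of SULT1A1 to 0.09 and CDKN1A to 0.12, the latter 0.01 with times pooled. RBE called 691 up and 8530 down under that scaling and SNU1079 1584 and 6485, against 3110 and 4905 and 2942 and 5086 under equal sums without mitochondrial genes, where the opposite genes split into 71 up and 109 down in SNU1079 and the interaction into 1005 and 1151. Of 154 named genes, 54 kept direction and side of the threshold in all alternatives, and the causes of the changes were not tested.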
